A study of Caenorhabditis elegans with 6 samples.

Results

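Genes that make microRNAs or act with them in *Caenorhabditis elegans* were followed here through poly(A)+ RNA-seq of worms with and without EBAX-1. They were picked by symbol from the gene count table, 9 of its 20447 genes. *drsh-1* and *pash-1* encode the Drosha–Pasha complex and *dcr-1* encodes Dicer, and this complex and Dicer cut microRNA precursors. The others are the Argonaute genes *alg-1*, *alg-2* and *alg-5*, the GW182 genes *ain-1* and *ain-2*, and the exonuclease gene *xrn-2*. Mutants with the *ebax-1(tm2321)* allele were compared with wild-type N2, all cultured at 20 °C on agar with OP50 bacteria and synchronized by bleaching. Gravid adults, grown with food for about 68 h, gave 1 library of mutants (strain FX02321) and 1 of wild type, each from 10 µg of total RNA. L1 larvae, hatched overnight in buffer and still starved, gave 2 libraries of mutants (strain CZ9907) and 2 of wild type, each from 3 µg of total RNA, and the study describes these as biological replicates. Mutant adults and mutant larvae thus carried the same allele in differently named strains, and stage, feeding and RNA input changed together in both genotypes, so that these cannot be told apart.

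A microRNA is cut from its nuclear hairpin transcript by the Drosha–Pasha complex and then from the exported hairpin by Dicer. It is loaded into an Argonaute protein of the AGO clade, which pairs with target mRNAs and recruits a GW182 protein, and through it the deadenylases and decapping factors that repress the target. EBAX-1 is the worm ortholog of ZSWIM8, the substrate receptor of a ubiquitin ligase through which the Argonaute of certain microRNAs is thought to be destroyed, so that the microRNA is lost. The 9 genes measured here encode the proteins that make, hold, use and turn over microRNAs, and their mRNAs, not their proteins, were counted.

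Total counts were 13148409 in the mutant adult library and 21328335 in the wild-type adult library, and ran from 10937932 to 11401529 in mutant L1 larvae and from 12555317 to 13425500 in wild-type L1 larvae. Levels are given as CPM, counts scaled to a common library size (per 1e6 counts) after TMM scaling over all 6 libraries. The targeted gene was checked first. *ebax-1* had 18.4 CPM in mutant adults and 45.8 CPM in wild-type adults. In L1 larvae it had 42.9 and 48.7 CPM in mutants, against 79.7 and 77.5 CPM in wild type, lower by edgeR at log2 -0.79 (SE 0.0972, adjusted p = 5.07e-06), so its coding counts were lower but not absent at both stages. The marker lists were also summed: yolk protein genes had 42600 CPM in mutant adults and 38000 CPM in wild-type adults, against 3.51 and 3.44 CPM in mutant L1 larvae and 2.71 and 4 CPM in wild-type L1 larvae, which separates the stages as labelled.

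All 9 genes were present in every library. They lie on 4 chromosomes of WBcel235. *alg-5* (WBGene00011945, chromosome I, 9989802 to 9993976, plus strand), *drsh-1* (WBGene00009163, I, 9781324 to 9785724, minus strand), *pash-1* (WBGene00011908, I, 10598673 to 10606621, plus strand) and *ain-2* (WBGene00015007, I, 4653467 to 4660153, plus strand) are on chromosome I. *alg-2* (WBGene00000106, 873212 to 879885, plus strand) and *xrn-2* (WBGene00006964, 14155768 to 14166030, plus strand) are on chromosome II, *dcr-1* (WBGene00000939, 8071967 to 8080281, minus strand) is on chromosome III, and *alg-1* (WBGene00000105, 13949110 to 13956261, plus strand) and *ain-1* (WBGene00015547, 16613451 to 16616871, plus strand) are on X. Reads had been counted over coding exons and by strand, and none of the 9 shares coding bases with another gene of the same strand. *alg-1* and *alg-2* encode closely related proteins, and only uniquely aligned reads were counted, so reads from any stretch identical between them are missing from both. Their levels relative to each other are uncertain to that extent, which was not measured here.

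Developmental stage separated the 9 genes into 2 opposite groups. *drsh-1*, *pash-1*, *dcr-1*, *alg-5* and *xrn-2* were higher in gravid adults than in starved L1 larvae, and *alg-1*, *alg-2*, *ain-1* and *ain-2* were lower. For all 9 genes both adult libraries lay outside the range of the 4 L1 libraries, as they did for 86.4% of all genes tested. Each passed the edgeR quasi-likelihood test for stage, in a fit of all 6 libraries with genotype as a term. That test was passed widely: of 15800 genes tested, 44% were called higher in adults and 41.9% lower, against 5 and 4 of the 9. Being called is therefore not particular to these genes, and the directions and sizes below are what the comparison gives.

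**Figure D1:**
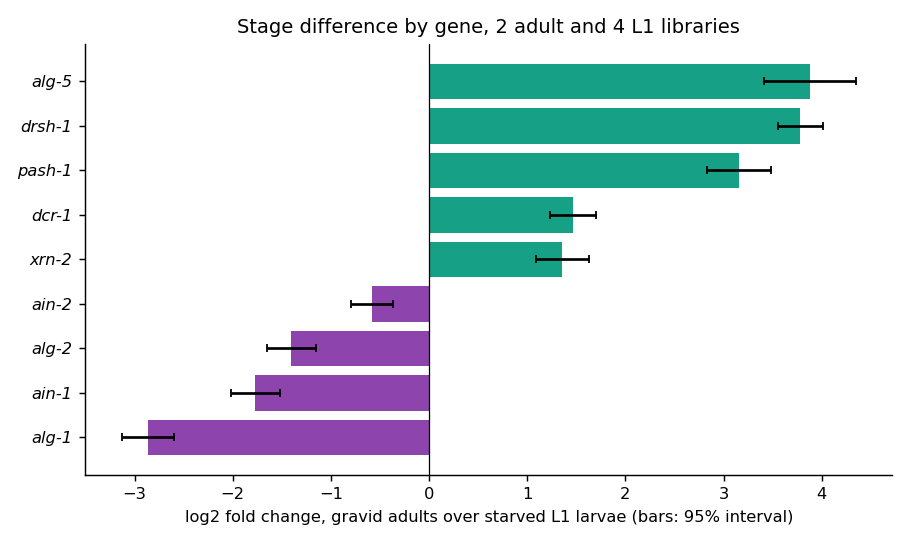
Log2 fold change of each gene, gravid adults over starved L1 larvae, from the edgeR fit of 2 adult and 4 L1 libraries with genotype as a term (bars, estimate; lines, 95% interval). The values run from 3.88 for *alg-5* to -2.86 for *alg-1*, and no interval reaches 0.

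The nuclear processing genes had large differences. *drsh-1*, which encodes the RNase III enzyme Drosha, had 188 CPM in mutant adults and 158 CPM in wild-type adults, against 15.4 and 13.5 CPM in mutant L1 larvae and 10.9 and 10.7 CPM in wild-type L1 larvae. Its log2 fold change of adults over L1 larvae was 3.78 (SE 0.0997, edgeR adjusted p = 9.94e-09), a 13.8-fold difference. *pash-1* encodes Pasha, the RNA-binding partner of Drosha, known as DGCR8 in mammals. It had 66.3 CPM in mutant adults and 64 CPM in wild-type adults, against 8.72 and 8.93 CPM in mutant L1 larvae and 5.42 and 6.66 CPM in wild-type L1 larvae. The adult level was 8.91-fold higher (log2 3.16, SE 0.144, edgeR adjusted p = 7.26e-08). In the units per kb used below, the ratio of *drsh-1* to *pash-1* within a library was 1.96 in mutant adults and 1.70 in wild-type adults, against 1.22 and 1.04 in mutant L1 larvae and 1.39 and 1.12 in wild-type L1 larvae. Both adult ratios were above all 4 L1 ratios. Among single genes tested, the libraries of the stages did not overlap for 86.4%, and no such share was taken for ratios.

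*dcr-1* encodes Dicer, the only Dicer of the worm, which cuts microRNA hairpins and also long double-stranded RNA. It had 215 CPM in mutant adults and 201 CPM in wild-type adults, against 75.8 and 65.5 CPM in mutant L1 larvae and 81.6 and 79.3 CPM in wild-type L1 larvae. Its 2.76-fold adult excess (log2 1.46, SE 0.104, edgeR adjusted p = 9.78e-07) was a smaller one than those of *drsh-1* and *pash-1*, and the 95% intervals of the log2 values do not meet (1.23 to 1.70 for *dcr-1*, 2.83 to 3.48 for *pash-1*). *xrn-2* encodes a 5′-to-3′ exoribonuclease that degrades mature microRNAs released from Argonaute in the worm, among other nuclear roles. It had 59.3 CPM in mutant adults and 66.0 CPM in wild-type adults, against 26.6 and 25.3 CPM in mutant L1 larvae and 21.2 and 25.1 CPM in wild-type L1 larvae. The adult level was 2.56-fold higher (log2 1.35, SE 0.119, edgeR adjusted p = 4.06e-06).

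The 3 AGO-clade genes moved in different directions. *alg-1*, which encodes the main microRNA Argonaute of somatic tissue, had 48.4 CPM in mutant adults and 50.01 CPM in wild-type adults, against 315 and 333 CPM in mutant L1 larvae and 388 and 405 CPM in wild-type L1 larvae. Its log2 fold change of adults over L1 larvae was -2.86 (SE 0.117, edgeR adjusted p = 4.4e-08). *alg-2*, whose product overlaps in function with that of *alg-1*, had 22.2 CPM in mutant adults and 21.2 CPM in wild-type adults, against 55.2 and 61.6 CPM in mutant L1 larvae and 54.4 and 58.3 CPM in wild-type L1 larvae. It was lower in adults by a log2 fold change of -1.40 (standard error 0.109, edgeR adjusted p = 1.78e-06), and its interval of -1.65 to -1.16 does not meet that of *alg-1*, -3.13 to -2.60.

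*alg-5* encodes an AGO-clade Argonaute that is expressed mainly in the germline and binds a subset of microRNAs. It had 118.9 CPM in mutant adults and 146 CPM in wild-type adults, against 12.9 and 10.1 CPM in mutant L1 larvae and 6.41 and 7.46 CPM in wild-type L1 larvae. With a log2 fold change of 3.88 (standard error 0.205, edgeR adjusted p = 1.59e-07), or 14.7-fold, it differed more by stage than any other of the 9 genes by estimate, although its interval of 3.42 to 4.35 covers the value of *drsh-1*. That order depended on genotype. The adult level was 10.31-fold higher for *alg-5* and 13.04-fold for *drsh-1* among mutants, against 21.02-fold and 14.55-fold among wild type.

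The GW182 genes followed *alg-1* and *alg-2*. *ain-1* had 86.0 CPM in mutant adults and 84.9 CPM in wild-type adults, against 274 and 317 CPM in mutant L1 larvae and 277 and 297 CPM in wild-type L1 larvae (log2 -1.77, SE 0.11, edgeR adjusted p = 4.18e-07). *ain-2* had 188 CPM in mutant adults and 224 CPM in wild-type adults, against 271 and 279 CPM in mutant L1 larvae and 336 and 353 CPM in wild-type L1 larvae (log2 -0.58, SE 0.0937, edgeR adjusted p = 0.00027). Either protein binds the microRNA Argonautes and brings in deadenylases. Of the 9 genes *ain-2* had the smallest stage difference.

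**Figure D2:**
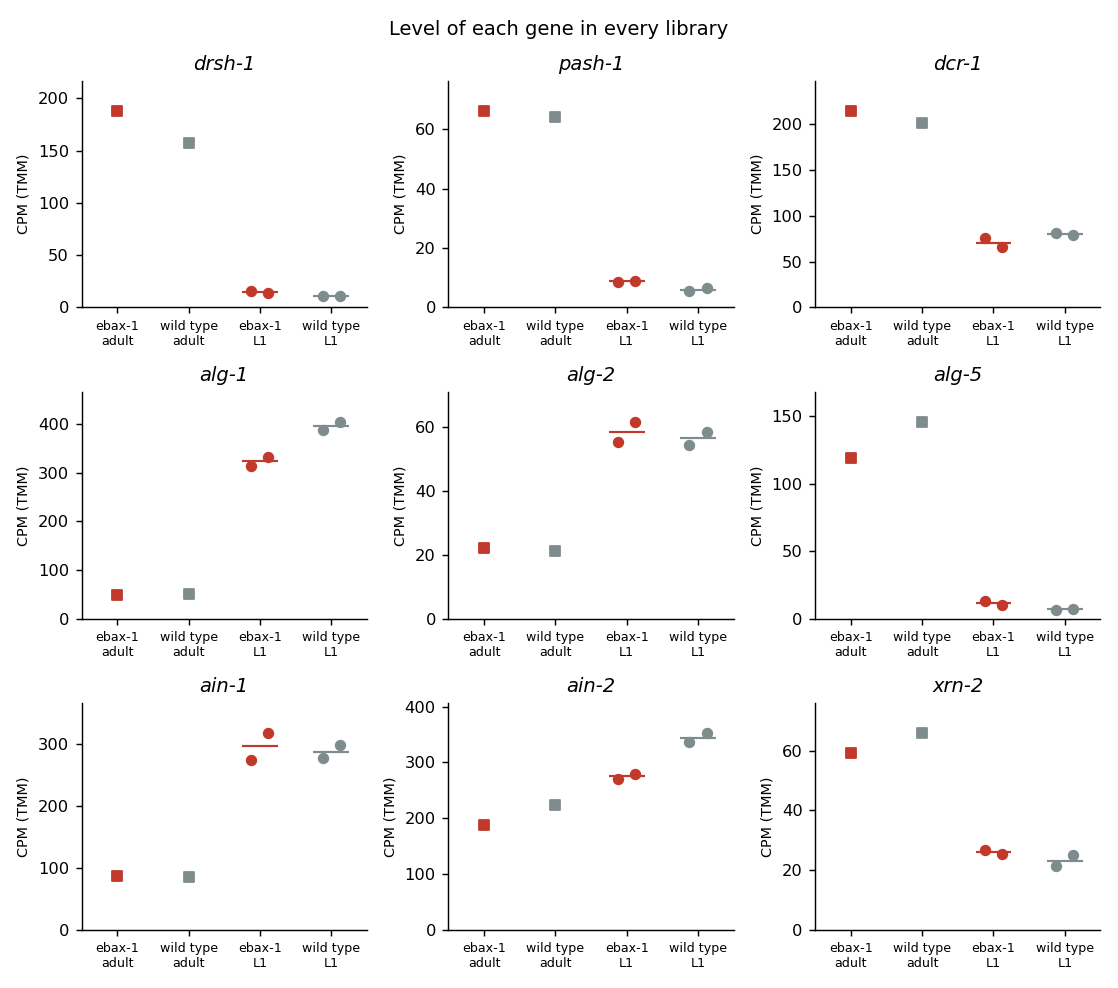
TMM-scaled CPM of each gene in every library, with a linear axis from 0 in each panel (squares, the single adult library of a genotype; circles, the 2 L1 libraries; lines, L1 means). The adult points of *drsh-1*, *pash-1*, *dcr-1*, *alg-5* and *xrn-2* lie above all L1 points, those of the other 4 genes lie below, and in L1 larvae the genotypes lie apart for *alg-1*, *alg-5* and *ain-2*, among others.

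Whole worms were sequenced, and in such samples fewer cells of a type and less RNA per cell cannot be told apart. Markers of the germline and oocytes were higher in adults for 23 of 23 genes, with a summed level of 7890 CPM in mutant adults and 8670 CPM in wild-type adults, against 327 and 259 CPM in mutant L1 larvae and 157 and 159 CPM in wild-type L1 larvae. None of the 23 was at 0 in a library. Neuronal markers moved the other way: 10 of 10 were lower in adults, with a sum of 450 CPM in mutant adults and 560 CPM in wild-type adults, against 3410 and 3540 CPM in mutant L1 larvae and 4540 and 4810 CPM in wild-type L1 larvae. The part of these tissues in the stage differences of the 9 genes was not tested.

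Dividing CPM by coding length in kb allows levels of different genes to be set side by side. In mutant adults the order was *ain-2* (83.8 CPM per kb), *drsh-1* (57.8), *ain-1* (44.7), *alg-5* (43.8), *dcr-1* (37.5), *pash-1* (29.4), *xrn-2* (20.3), *alg-1* (15.8) and *alg-2* (8.13). In wild-type adults it was *ain-2* (99.8 CPM per kb), *alg-5* (53.7), *drsh-1* (48.4), *ain-1* (44.2), *dcr-1* (35.1), *pash-1* (28.4), *xrn-2* (22.6), *alg-1* (16.3) and *alg-2* (7.76). The orders differ only in the place of *alg-5*, and with 1 library a genotype that change of place has no replicate check.

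In mutant L1 larvae the mean levels per kb were 154 for *ain-1*, 123 for *ain-2*, 105 for *alg-1*, 21.4 for *alg-2*, 12.3 for *dcr-1*, 8.87 for *xrn-2*, 4.43 for *drsh-1*, 4.25 for *alg-5* and 3.92 for *pash-1*. In wild-type L1 larvae they were 154 for *ain-2*, 149 for *ain-1*, 129 for *alg-1*, 20.6 for *alg-2*, 14.0 for *dcr-1*, 7.92 for *xrn-2*, 3.33 for *drsh-1*, 2.68 for *pash-1* and 2.55 for *alg-5*. Libraries of neighbouring genes overlapped for *ain-1* and *ain-2* in wild type, for *pash-1* and *alg-5* in both genotypes, and for *alg-5* and *drsh-1* in the mutant. All other neighbours were separated in both libraries of a genotype. The effector genes *ain-1*, *ain-2* and *alg-1* thus stood at the top in L1 larvae and the nuclear processing genes near the bottom.

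Shares within a library need no scaling between libraries. *alg-1*, *alg-2* and *alg-5* were therefore set against their own sum of counts per kb. *alg-5* made up 64.7% of that sum in mutant adults and 69.1% in wild-type adults, against 3.73% and 2.77% in mutant L1 larvae and 1.59% and 1.76% in wild-type L1 larvae. *alg-1* made up 23.3% in mutant adults and 20.96% in wild-type adults, against 80.4% and 80.5% in mutant L1 larvae and 85.01% and 84.6% in wild-type L1 larvae. Among these genes the leading transcript was thus *alg-5* in both adult libraries and *alg-1* in all 4 L1 libraries. Other Argonaute genes were not part of the sum. Before division by length, *rde-1* and *ergo-1* had 167 and 168 CPM in mutant adults, where *alg-5* had 118.9 CPM. In wild-type adults they had 152 and 175 CPM, where *alg-5* had 145.8 CPM. The sum itself was 67.7 CPM per kb in mutant adults and 77.7 in wild-type adults, against 128 and 135 in mutant L1 larvae and 149 and 156 in wild-type L1 larvae.

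**Figure D3:**
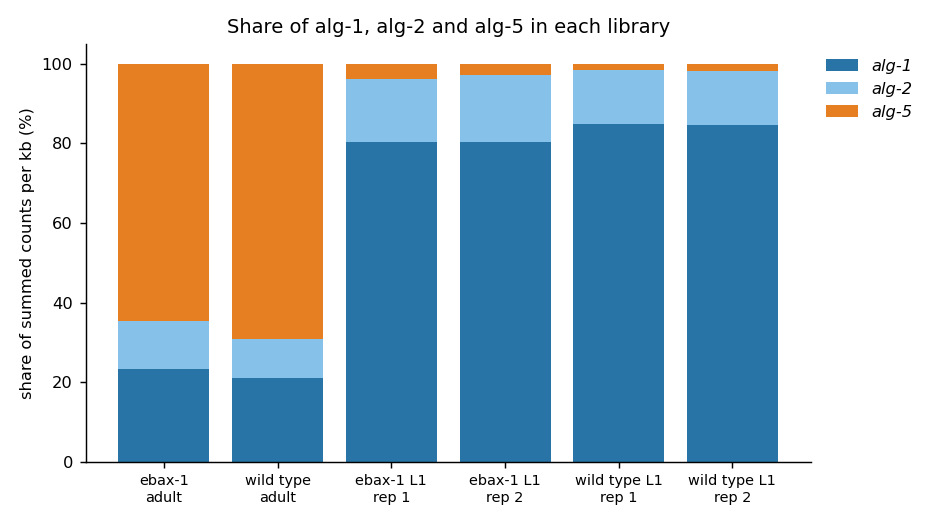
Share of *alg-1*, *alg-2* and *alg-5* in their summed counts per kb of coding sequence (percent), 1 stacked bar per library. *alg-5* holds 64.7% and 69.1% in the adult bars and between 1.59% and 3.73% in the L1 bars, where *alg-1* holds at least 80.4%.

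Mutants were then compared with wild type in L1 larvae, the stage with replicates. This asks whether the machinery changed in its mRNAs in animals that lack the microRNA decay factor. All mutant libraries carried the *ebax-1(tm2321)* allele. In that line the paper infers a second-site mutation, independent of *ebax-1*, that lowers a group of piRNAs. Loss of EBAX-1 and other differences of the mutant line therefore cannot be told apart here. *alg-5* rose in *ebax-1* larvae, *alg-1* and *ain-2* fell, and the other 6 genes did not pass the threshold of an edgeR adjusted p of 0.05. Over all 13756 genes tested, 6.59% were called higher and 9.97% lower, against 1 and 2 of the 9. The median log2 fold change was 0.05 for the 9 genes and 0.01 for all genes. The split over all genes depended on scaling: 39.8% of calls were higher with TMM, and 76.3% with scaling by total count, which moved the median of all genes to 0.17.

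*alg-1* had 324 ± 12.6 CPM in mutant larvae and 397 ± 12.3 CPM in wild-type larvae (SD, n = 2 each). Its log2 fold change was -0.30 (SE 0.085, 95% interval -0.48 to -0.12, edgeR adjusted p = 0.0181), and both mutant libraries were below both wild-type libraries. The gene acts in the heterochronic pathway, where its loss retards larval development. *ain-2* had 275 ± 5.54 CPM in mutant larvae and 345 ± 12.2 CPM in wild-type larvae (SD, n = 2 each), a log2 fold change of -0.33 (standard error 0.0842, 95% interval -0.51 to -0.16, edgeR adjusted p = 0.00862). Neither call held without either wild-type library: adjusted p was 0.112 and 0.257 for *alg-1*, and 0.06 and 0.179 for *ain-2*. In the same larvae 4 of 8 body wall muscle markers were called lower and 1 higher, with a median log2 fold change of -0.15. Their sum was 18100 and 20900 CPM in mutant larvae, against 23600 and 26600 CPM in wild-type larvae. Of that sum *unc-54* alone made up 9540 and 11000 CPM in mutant larvae, against 13600 and 15700 CPM in wild-type larvae. Of 8 intestinal markers 2 were called lower and 1 higher, with a median of -0.02. Of the 10 neuronal markers 2 were called lower and none higher, their median was -0.01, and their sums are given above. The 2 were *egl-3* and *egl-21*, which made up most of those sums. *egl-3* had 1700 and 1750 CPM in mutant larvae, against 2360 and 2520 CPM in wild-type larvae. For *egl-21* these were 817 and 857 CPM, against 1260 and 1320 CPM. By estimate *unc-119*, *rab-3*, *snb-1* and *snt-1* were higher in mutants, and *ric-4*, *unc-64*, *unc-13* and *rgef-1* lower. The part of these tissues in the *alg-1* and *ain-2* differences was not tested. Under total count scaling the values were -0.14 for *alg-1* (edgeR adjusted p = 0.227) and -0.17 for *ain-2* (edgeR adjusted p = 0.133).

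*alg-5* had 11.5 ± 1.96 CPM in mutant larvae and 6.94 ± 0.744 CPM in wild-type larvae (SD, n = 2 each), from 151 and 109 counts in the mutant and 78 and 84 in wild type. Its log2 fold change was 0.73 (SE 0.195, 95% interval 0.33 to 1.14, edgeR adjusted p = 0.0117), the largest of the 9 by estimate, at a low level. The call was lost with DESeq2 (adjusted p = 0.0953), without wild-type replicate 1 (edgeR adjusted p = 0.098) and without mutant replicate 1 (edgeR adjusted p = 0.101). In the same larvae the germline and oocyte markers were higher: 10 of 23 passed the test and none was called lower, with a median log2 fold change of 0.74, and the mutant library with the higher *alg-5* (replicate 1) had the higher marker sum, 327 against 259 CPM. The part of germline content in the *alg-5* difference was not tested.

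The nuclear processing genes lay on the same side as *alg-5* but were not called. *drsh-1* had 14.4 ± 1.35 CPM in mutant larvae and 10.8 ± 0.128 CPM in wild-type larvae (SD, n = 2 each), a log2 fold change of 0.41 (95% interval 0.07 to 0.75, edgeR adjusted p = 0.0924). *pash-1* had 8.83 ± 0.146 CPM in mutant larvae and 6.04 ± 0.876 CPM in wild-type larvae (SD, n = 2 each), a log2 fold change of 0.54 (95% interval 0.12 to 0.97, edgeR adjusted p = 0.0781). Both crossed the threshold in the fit of all 6 libraries (edgeR adjusted p = 0.0412 for *drsh-1* and 0.0388 for *pash-1*) and under total count scaling (0.018 and 0.0186), and *drsh-1* also without mutant replicate 2 (0.0452). Their group means rest on 66 to 180 counts a library.

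For *dcr-1* the means were 70.6 ± 7.28 CPM in mutant larvae and 80.5 ± 1.61 CPM in wild-type larvae (SD, n = 2 each), with a log2 fold change of -0.19 (95% interval -0.39 to 0.01, edgeR adjusted p = 0.189). Without mutant replicate 1, the larger of its mutant values, *dcr-1* was called lower (log2 -0.30, edgeR adjusted p = 0.0308). *xrn-2* had a log2 fold change of 0.16 (95% interval -0.11 to 0.43, edgeR adjusted p = 0.461). For *alg-2* the value was 0.05 (95% interval -0.16 to 0.25, edgeR adjusted p = 0.812) and for *ain-1* it was 0.04 (95% interval -0.15 to 0.23, edgeR adjusted p = 0.835), and for these 2 genes the libraries of the genotypes overlapped. In 7 of the 9 genes they did not overlap, 4 with the mutant above and 3 with it below, which was also the case for 56.2% of all genes tested.

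**Figure D4:**
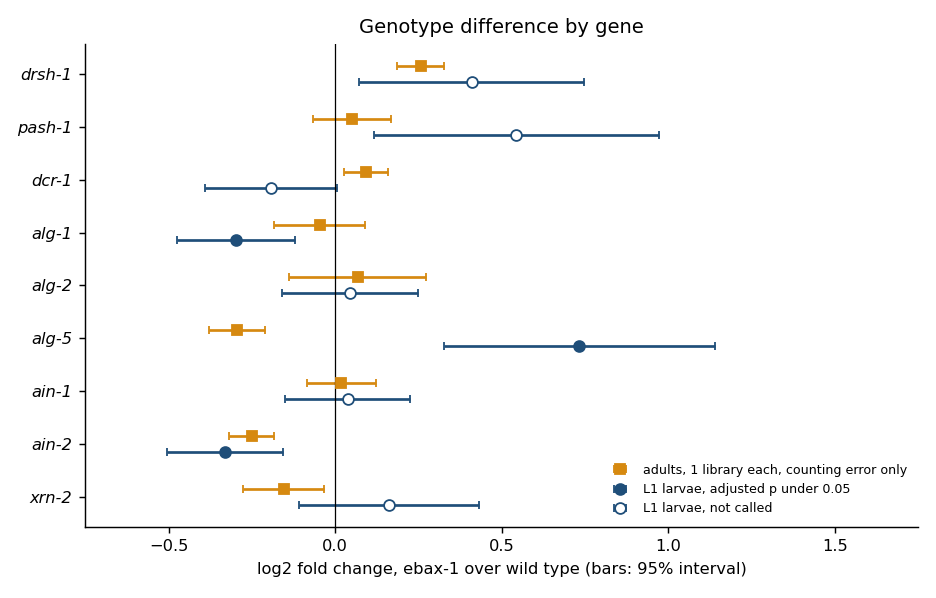
Log2 fold change of each gene, *ebax-1* over wild type, in gravid adults (squares, 1 library each, 95% exact binomial interval for counting error only) and in L1 larvae (circles, edgeR estimate with 95% interval, filled where the adjusted p is under 0.05). In L1 larvae *alg-5* lies at 0.73, *alg-1* at -0.30 and *ain-2* at -0.33, whereas *alg-5* lies at -0.29 in adults.

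Ratios within a library were also compared between the genotypes. The ratio of *alg-1* to *alg-2* per kb was 5.08 and 4.80 in mutant L1 larvae, against 6.34 and 6.19 in wild-type L1 larvae. The difference of log2 ratios was -0.34, with means of 2.30 ± 0.0561 in the mutant and 2.65 ± 0.0254 in wild type (SD, n = 2 each). *ain-1* over *ain-2* was 1.18 and 1.33 in mutant larvae, against 0.962 and 0.983 in wild-type larvae. In each of these ratios the genotypes did not overlap, whereas the L1 ratios of *drsh-1* to *pash-1* given above did overlap. Among single genes tested in L1 larvae, 56.2% did not overlap, and no such share was taken for ratios. With 2 libraries against 2, no two-sided exact permutation p under 0.333 is possible.

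The adults, with 1 library a genotype, have no replicate check, and their intervals cover counting error only. None of the 9 genes differed by 1.5-fold or more, which 16.8% of 13563 genes did. *ain-2* had a ratio of mutant to wild type of 0.84 (95% exact binomial interval 0.802 to 0.88) and *alg-5* had 0.816 (0.769 to 0.864). *drsh-1* had 1.19 (1.14 to 1.25), *dcr-1* 1.07 (1.02 to 1.12) and *xrn-2* 0.898 (0.826 to 0.976). The intervals were 0.881 to 1.06 for *alg-1*, 0.909 to 1.21 for *alg-2*, 0.943 to 1.09 for *ain-1* and 0.955 to 1.12 for *pash-1*. They do not cover the choice of scaling, and under total count scaling the log2 ratios of *dcr-1*, *drsh-1* and *ain-2* left their intervals. The ratio of *dcr-1* was 0.1682 (interval with TMM 0.0269 to 0.1577) and that of *drsh-1* 0.3317 (0.1843 to 0.3275). That of *ain-2* was -0.1753 (-0.3181 to -0.1845). The log2 ratio of *xrn-2* was -0.08, against -0.16 with TMM, and stayed within its interval. The median log2 ratio was 0.02 over the 9 genes and -0.05 over all genes.

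The genotype difference itself was tested between stages with an interaction term, which takes its spread from the L1 libraries and assumes that an adult library varies like them. Of 15800 genes, 9.27% were called in either direction, and 1 of the 9 was. *alg-5* was higher in mutant L1 larvae and lower in the mutant adult library, and its genotype effect in adults minus that in L1 larvae was -1.03 on the log2 scale (SE 0.215, 95% interval -1.48 to -0.59, edgeR adjusted p = 0.00188). Put as a stage difference, *alg-5* was 10.3-fold higher in adults than in L1 larvae among mutants and 21.02-fold higher among wild type. *ain-2*, which fell in L1 larvae, had an interaction of 0.07 (95% interval -0.23 to 0.38, edgeR adjusted p = 0.85), and *alg-1* had 0.25 (95% interval -0.08 to 0.57, edgeR adjusted p = 0.401). For *pash-1* it was -0.50 (95% interval -0.99 to -0.01, edgeR adjusted p = 0.223). Adult and larval mutants were of different strains, so stage and strain cannot be told apart in this term.

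The genes around the 9 were read from lists. Of 18 cofactors and turnover factors of microRNAs, 1 was called higher in *ebax-1* L1 larvae and 4 lower, with a median log2 fold change of -0.07. Over all genes tested 6.59% were called higher and 9.97% lower, the shares to set beside this list and those that follow. *sti-1*, a cochaperone of HSP90, had 42.7 and 35.3 CPM in mutant larvae, against 76.1 and 73.3 CPM in wild-type larvae (log2 -0.94, edgeR adjusted p = 1.34e-06). *vig-1*, named for a RISC component of flies (log2 -0.41, edgeR adjusted p = 0.0034), *disl-2*, which degrades uridylated *let-7* precursor (log2 -0.51, edgeR adjusted p = 0.00767), and the cytoplasmic exonuclease gene *xrn-1* (log2 -0.26, edgeR adjusted p = 0.0493) also fell. The gene that rose was *ran-1*, the GTPase of nuclear transport (log2 0.38, edgeR adjusted p = 0.0027). In this list DESeq2 called 1 higher and 2 lower, total count scaling 2 higher and 1 lower, and edgeR 1 higher and 1 lower without wild-type replicate 1. With the other wild-type library left out it called 0 higher and 3 lower.

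Of 18 partners of Dicer and siRNA-class factors, 1 rose and none fell, and the median was 0.00. The gene that rose was *ergo-1*, which encodes an Argonaute of 26G siRNAs. It had 78.0 and 70.3 CPM in mutant larvae, against 61.5 and 57.6 CPM in wild-type larvae (log2 0.31, edgeR adjusted p = 0.0276). *ergo-1* was not called with DESeq2 or without mutant replicate 1 or either wild-type replicate. *rde-4*, the double-stranded RNA binding partner of *dcr-1*, had a log2 fold change of -0.13 (edgeR adjusted p = 0.608).

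Of 22 deadenylation and decapping genes none was called in the edgeR fit of the 4 L1 libraries or with DESeq2, 4 had an unadjusted edgeR p under 0.05, and 9 were called higher under total count scaling. With all 6 libraries in the fit edgeR called 1 higher, and with a minimum of 50 counts in each library of a genotype it also called 1. The smallest p-values were those of *lsm-4*, an Lsm ring subunit (log2 0.53, edgeR adjusted p = 0.0644), and *patr-1*, a decapping activator (log2 0.21, edgeR adjusted p = 0.0973).

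Of the other Argonaute genes, 12 were tested, of which 4 rose and none fell, with a median of 0.24. *wago-1* had 40.8 and 29.3 CPM in mutant larvae, against 19.3 and 18.3 CPM in wild-type larvae (log2 0.90, edgeR adjusted p = 0.000135). *hrde-1* (log2 0.51, edgeR adjusted p = 0.0296), *vsra-1* (log2 0.34, edgeR adjusted p = 0.0432) and *ergo-1* made up the rest. WAGO-1 and HRDE-1 are Argonautes of germline 22G siRNAs, and their mRNAs were called in the same larvae as the germline markers above. Genes of the list that were not called included *wago-4* (log2 0.46, edgeR adjusted p = 0.309) and *prg-1* (log2 0.17, edgeR adjusted p = 0.409). Others were *csr-1* (log2 -0.10, edgeR adjusted p = 0.611) and *ppw-1* (log2 -0.25, edgeR adjusted p = 0.577). The part of germline content in these differences was not tested. DESeq2 called 1 of the 12, and with 1 library left out edgeR called 1 (mutant replicate 1), 1 (wild-type replicate 2), 2 (wild-type replicate 1) or 4 (mutant replicate 2). By stage, 17 of 18 Dicer partners and 13 of 15 of these Argonautes were higher in adults, whereas 12 of 22 deadenylation and decapping genes were higher and 6 lower, and 13 of 18 cofactors were higher and 5 lower. Over all genes tested for stage, 44% were called higher in adults and 41.9% lower.

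**Figure D5:**
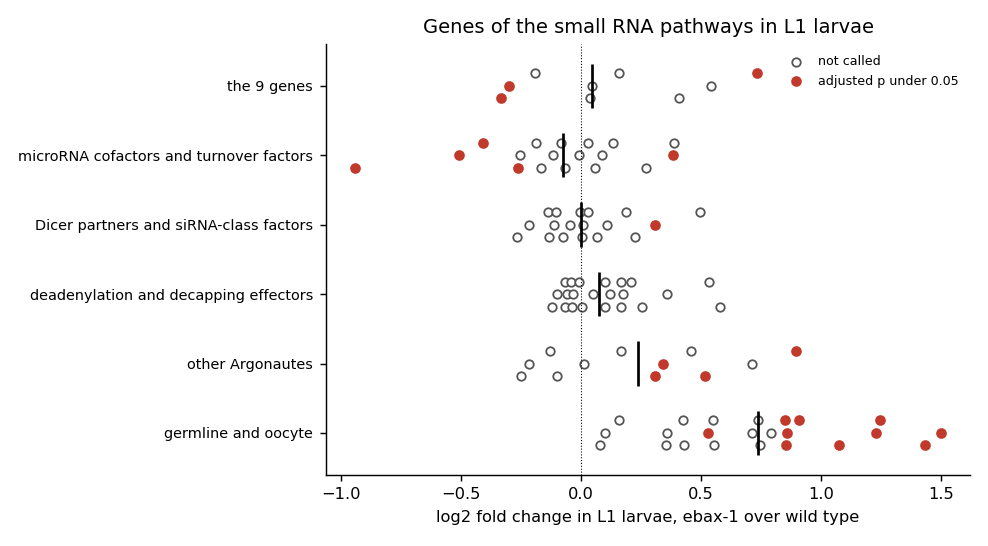
Log2 fold change of each tested gene in L1 larvae, *ebax-1* over wild type, for the 9 genes, 4 lists of related genes and the germline and oocyte markers (filled points, edgeR adjusted p under 0.05; black lines, list medians; vertical offset has no meaning). Medians run from -0.07 for the cofactors to 0.24 for the other Argonautes and 0.74 for the germline markers.

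The genes most like each Argonaute across the 6 libraries were sought by the distance between gene-centred log2 CPM among 11149 genes. The nearest to *alg-5* was *syp-1*, a component of the synaptonemal complex of meiotic germ cells, at a distance of 0.201 where the median over all genes was 4.66, followed by *hpo-40* (0.206) and *madf-6* (0.223). *syp-1* had 110 CPM in mutant adults and 124 CPM in wild-type adults, against 10.6 and 8.37 CPM in mutant L1 larvae and 6.08 and 6.84 CPM in wild-type L1 larvae. For *alg-1* the nearest were T19C3.5 (0.0854), T06G6.3 (0.102) and *cfi-1*, a neuronal transcription factor gene (0.122), with a median of 3.32 over all genes. For *alg-2* they were W05B10.4 (0.0927), the mitochondrial gene *immt-1* (0.0936) and *nhr-228* (0.11), with a median of 2.01. The distances describe 6 libraries in 2 stages and are set largely by the stage difference.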

How the data were processed

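Poly(A)+ RNA-seq of whole worms was analysed from the raw counts per gene that the authors deposited. By the study's methods, libraries were stranded, reads were aligned with STAR 2.7.1a, unique alignments alone were kept, and featureCounts assigned them to coding exons by strand. The methods name the WS245 annotation and the submitters' processing notes the WBcel235 build and DESeq2. Positions and coding lengths were taken from Ensembl gene models on WBcel235. Untranslated regions were not counted.

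Genotypes of the 4 L1 libraries were tested in R 4.3.3 by edgeR 4.0.16, using filterByExpr with a minimum count of 10, TMM factors, the two-sided quasi-likelihood test and Benjamini-Hochberg adjustment over all genes tested, with a threshold of 0.05. Stage and interaction were fitted over 6 libraries. With so few libraries, the tests borrow the spread of all genes. Adult ratios used genes with at least 50 counts over both libraries and a prior count of 1 in the log2 values, with exact binomial (Clopper-Pearson) intervals at 95%. Intervals of counts cover counting error only. Alternatives were DESeq2 1.42.0, RLE factors, total count scaling, other filters and prior counts, a replicate block, a fit of all libraries, and leaving out each library. All 9 genes were named, with *ebax-1*. From each list came up to 6 called genes with the smallest p, else the leading 2, and *rde-4* was added after its values were seen. Genes like the Argonautes were the nearest 3 with a mean of at least 5 CPM and a prior count of 2. Of 148 list symbols, 7 were not matched and were not used here. The genes and lists were chosen with earlier results of these data known. A planned comparison of member sequences was not run.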

Additional observations from a re-analysis of the deposited data

Results flagged for a closer look

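The genotype effect on *alg-5* differed between the adult and L1 comparisons by the test of the interaction term. *alg-5* had 118.9 CPM in mutant adults and 146 CPM in wild-type adults, and 12.9 and 10.1 CPM in mutant L1 larvae against 6.41 and 7.46 CPM in wild-type L1 larvae. The effect in adults minus that in L1 larvae was -1.03 on the log2 scale (edgeR adjusted p = 0.00188, and between 1.34e-06 and 0.049 over 8 alternatives). Each adult arm is 1 library, assumed to vary like the L1 libraries, and adult and larval mutants were of different strains, so stage and strain cannot be told apart. No group held 4 or more libraries, so single libraries were not tested for standing apart.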

How the results depend on the processing

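All 9 stage calls kept their direction and their side of the threshold under every alternative run for stage, while the median of all genes, 0.05, was 0.16 with DESeq2, 0.19 with RLE factors and 0.27 with total count scaling. In L1 larvae 3 of the 9 genes were called. DESeq2 called 2, 0 of them higher, and 1267 genes in all against 2278. Total count scaling called 3 higher and 0 lower. The fit of all 6 libraries called 5, 3 of them higher. Leaving out 1 library gave 0 to 4 called, 0 to 2 higher and 0 to 3 lower, with 1359 (without wild-type replicate 2) to 2396 genes in all. Deviations of same-numbered L1 libraries correlated at -0.011 over the genes tested in L1 larvae. A single value over all genes cannot show whether some genes share a deviation. The labels do not say whether same-numbered libraries were grown or prepared together. With a replicate block 3 of the 9 and 2249 genes were called, and no call changed (*alg-1* -0.30, *ain-2* -0.33, *alg-5* 0.73). Called values never changed sign. Among values not called, *alg-2* in L1 larvae ran from -0.0271 (without mutant replicate 2) to 0.122 (without mutant replicate 1) when 1 library was left out, with -0.0074 without wild-type replicate 1, and *ain-1* ran from -0.0636 to 0.1373 over the same fits, with -0.0174. The interaction of *alg-2* was -0.0144 with DESeq2, -0.0132 with RLE factors, -0.0622 with total count scaling, and -0.0533 (without mutant replicate 1) to 0.0988 when 1 library was left out, with -0.0331 without wild-type replicate 2. That of *ain-2* was -0.0056 with total count scaling, and that of *ain-1* was -0.1177 to 0.0863 when 1 library was left out, with 0.0336 without wild-type replicate 1. DESeq2 called 432 interactions over all genes, against 1464. No alternative brought any of the 9 adult ratios past 1.5-fold. The causes were not tested. Each genotype has 2 larval libraries and 1 adult library, and the 66 to 180 counts of *alg-5*, *drsh-1* and *pash-1* in a larval library limit their precision. The planned comparison of sequences was not run.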

Other observations

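*drsh-1*, *alg-5* and *pash-1*, the 3 of the 9 genes with the highest adult excess, lie within 825298 bases of chromosome I (9781324 to 10606621, WBcel235), a stretch noticed after their values were seen. Of 158 other genes tested in that stretch, 59.5% were called higher in adults and 32.9% lower by edgeR, with a median log2 fold change of 0.89 for adults over L1 larvae, against 44% higher, 41.9% lower and a median of 0.05 over all genes tested. In L1 larvae 137 other genes of the stretch were tested for genotype, of which 6.57% were called higher in *ebax-1* mutants and 9.49% lower, against 6.59% and 9.97% over all genes tested.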
